A study of Mus musculus with 2 samples.

Results

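The 9 miRNA genes Mir151, Mir186, Mir340, Mir652, Mir744, Mir423, Mir191, Mir425 and Mir361 were described in the mouse adrenal gland. They were chosen by name, as miRNAs that lie within broadly transcribed host genes and could serve as a reference for level and stability between libraries. All 9 were found by gene identifier among the 2202 miRNA genes of the tables. Small RNA was sequenced in 2 libraries of adrenal gland tissue, labelled as female B6CASTF1/J mouse aged 25 days. The strain is an F1 cross between laboratory and wild-derived CAST mice. The adrenal gland is the endocrine organ whose cortex makes steroid hormones and whose medulla releases catecholamines. The assay was microRNA sequencing of total RNA below 30 nucleotides. Both libraries belong to 1 group without treatment, numbered as biological replicates 2 and 1, and no other group was compared. Per the labels the animals are numbered separately, yet both carry 1 donor identifier. Nothing else says whether the libraries came from separate animals.

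An intronic miRNA is cut by the nuclear enzyme Drosha from the primary transcript of its host gene. The hairpin is then exported and cut by Dicer into a duplex, and one arm is loaded into an Argonaute protein, where bases 2 to 8 of the arm, the seed, pair with target mRNAs. A miRNA in a host that most cells transcribe is usually found in many tissues, and Mir191, Mir423, Mir425 and Mir361 are often used as reference small RNAs in quantitative PCR.

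The mature sequences of the genes on which the results below turn are given from RefSeq (GRCm38.p6), 5′ to 3′, with the seed in capitals. Mir652 is shown as the most abundant of the 9, Mir191 and Mir425 as the pair within 1 host, and Mir423 and Mir340 as the genes that differed most between the libraries.
mmu-miR-652-5p: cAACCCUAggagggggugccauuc
mmu-miR-652-3p: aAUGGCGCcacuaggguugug
mmu-miR-191-5p: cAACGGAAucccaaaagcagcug
mmu-miR-191-3p: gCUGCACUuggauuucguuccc
mmu-miR-425-5p: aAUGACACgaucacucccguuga
mmu-miR-425-3p: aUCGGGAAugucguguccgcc
mmu-miR-423-5p: uGAGGGGCagagagcgagacuuu
mmu-miR-423-3p: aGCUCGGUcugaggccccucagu
mmu-miR-340-5p: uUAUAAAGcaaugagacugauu
mmu-miR-340-3p: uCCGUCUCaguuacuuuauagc
The deposited tables count reads per hairpin gene, so each count pools both arms. RefSeq entries matched 8 of the 9 genes by symbol, all but Mir151, with 16 mature arms of 21 to 25 bases. The 16 arms had 16 different seeds, so no 2 of these arms belong to the same seed family. Of the 16 seeds, 14 occurred in no other mature mouse miRNA among 1679 names in the table. The seed of miR-423-5p was shared with miR-6921-5p and that of miR-425-5p with miR-489-3p. None of the 8 hairpins shared a stretch of 20 bases, on either strand, with another hairpin of the table. Their GC content had a median of 50.7% and ranged from 33.8% in Mir186 to 56.0% in Mir744. Over 292 of the 337 detected genes with a matching hairpin the median was 50.0%.

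In mm10, with the GENCODE M21 annotation, 7 of the 9 genes lay in introns of protein-coding genes on the same strand, and none of these 7 overlapped an annotated exon of its host. Mir151 (ENSMUSG00000065612.1; chromosome 15, 73254815 to 73254882, minus strand) lay in Ptk2, the focal adhesion kinase. Mir744 (ENSMUSG00000076460.1; chromosome 11, 65734733 to 65734832, minus strand) lay in Map2k4, a kinase that activates the JNK pathway. Mir186 (ENSMUSG00000065431.1; chromosome 3, 157544279 to 157544349, plus strand) lay in Zranb2, a zinc finger gene of RNA splicing. Mir423 (ENSMUSG00000065518.2; chromosome 11, 77078064 to 77078172, minus strand) lay in Nsrp1, a splicing regulator of nuclear speckles. Mir423 began only 263 bases from the start of its host, against 10.1 to 168 kb for the other 6 intronic genes. Mir340 (ENSMUSG00000065417.1; chromosome 11, 50069702 to 50069799, plus strand) lay in Rnf130, a RING finger ubiquitin ligase gene. Mir361 (ENSMUSG00000065510.1; chromosome X, 113074824 to 113074893, minus strand) lay in Chm, which encodes a Rab escort protein. Mir652 (ENSMUSG00000076011.1; chromosome X, 142739000 to 142739097, plus strand) lay in Tmem164, a membrane protein gene.

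Mir191 (ENSMUSG00000105497.1; chromosome 9, 108568319 to 108568392, plus strand) and Mir425 (ENSMUSG00000065579.1; chromosome 9, 108568777 to 108568861, plus strand) lay in no protein-coding gene of this annotation. Both were within 4833445I07Rik, a long noncoding RNA gene, with 384 bases between them. One annotated transcript of 4833445I07Rik held both in an exon, and Mir191 was intronic in the second. The protein-coding gene Dalrd3 began 1024 bases downstream of Mir425 on the same strand.

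**Figure D1:**
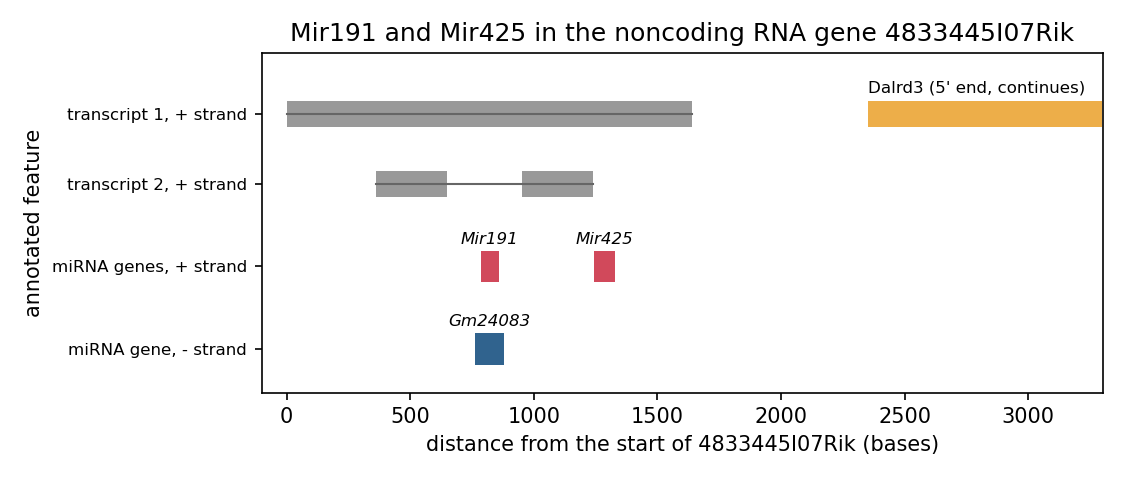
Map of the Mir191 and Mir425 locus in GENCODE M21, with the distance from the start of 4833445I07Rik in bases on the x axis and 1 line per transcript or strand on the y axis; grey boxes are exons. Gm24083 on the minus strand spans Mir191 on the plus strand, and Mir425, 384 bases downstream of Mir191, has no miRNA gene opposite it.

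Library 2 held 3912280 reads on the strand of a miRNA gene and library 1 held 2244073. The level of a gene is its normalised read count (CPM), its own reads scaled to the sum of all such reads in that library. The RNA sequenced was below 30 nucleotides, so levels were not divided by the length of the hairpin gene. The counts hold no read lengths, so whole mature miRNAs and shorter pieces were not told apart. A CPM is a share of the library and moves with the other genes. Mir126a, a marker of endothelium, took 12.1% of library 2 and 5.38% of library 1. The 3 erythroid genes took 2.57% and 0.068%, and Mir122 of hepatocytes 0.0491% and 0.518%. Mir486 went the other way from the rest of the erythroid list, with a log2 ratio of library 2 over library 1 of -1.03 (scaling and test as below). The 4 smooth muscle and fibroblast genes, of which 3 were detected, took 4.18% in library 2 and 2.89% in library 1, and the 4 leukocyte genes, all detected, 0.0913% and 0.109%. Within both lists genes went opposite ways, with log2 ratios of 0.66 for Mir143 and -0.71 for Mir214, and of 0.85 for Mir142, -0.92 for Mir150 and -2.12 for Mir223. Of the 7 kidney and epithelial genes 4 were detected, with 0.0116% in library 2 and 0.0158% in library 1, and the 5 striated muscle genes held 5 and 9 reads. All of these muscle reads were of Mir206. Reads that mapped to several places are not in these counts, so the few reads do not show that muscle miRNAs were absent. Whether this lowered the counts of any marker list was not tested. As a check of the tissue, Mir375 of endocrine cells had 36561 CPM in library 2 and 37574 CPM in library 1. Of the 8 endocrine and neuroendocrine genes 5 were detected. All 5 passed the test as higher in library 2 with TMM, as did 112 of all 337 detected genes. Mir375 passed at a log2 ratio of 0.047, and was lower in library 2 when scaled by library size alone. Mir7b had 5543 CPM in library 2 and 3921 CPM in library 1, and the list held 4.33% and 4.22% of the reads. Mir375 alone had 143037 of the 169550 reads of the list in library 2 and 84318 of 94752 in library 1. The near-equal share thus followed Mir375 and not the rest of the list. With TMM the log2 ratio was 0.59 for Mir7b, 0.44 for Mir7-1, 1.00 for Mir137 and 1.26 for Mir7-2. In bulk tissue, fewer cells of a type and less RNA per cell cannot be told apart.

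All 9 genes were detected (at least 10 reads in both libraries), and together they held 3.29% of the miRNA reads in library 2 (95% Wilson interval 3.27 to 3.30%) and 3.79% in library 1 (3.77 to 3.82%). Intervals cover counting error only, and with no molecular identifiers, PCR copies of 1 molecule count as separate reads. Their levels fell into 3 tiers. Mir652, Mir151, Mir191 and Mir744 had 5370 CPM or more in either library, Mir423, Mir361 and Mir425 between 1104 and 2622 CPM, and Mir186 and Mir340 between 94.9 and 139 CPM. The highest mean level was 85.1 times the lowest. Of the 9 genes, 7 were above the median level of all 337 detected genes, which was 156 CPM, and 4 were among the 40 most abundant miRNA genes.

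**Figure D2:**
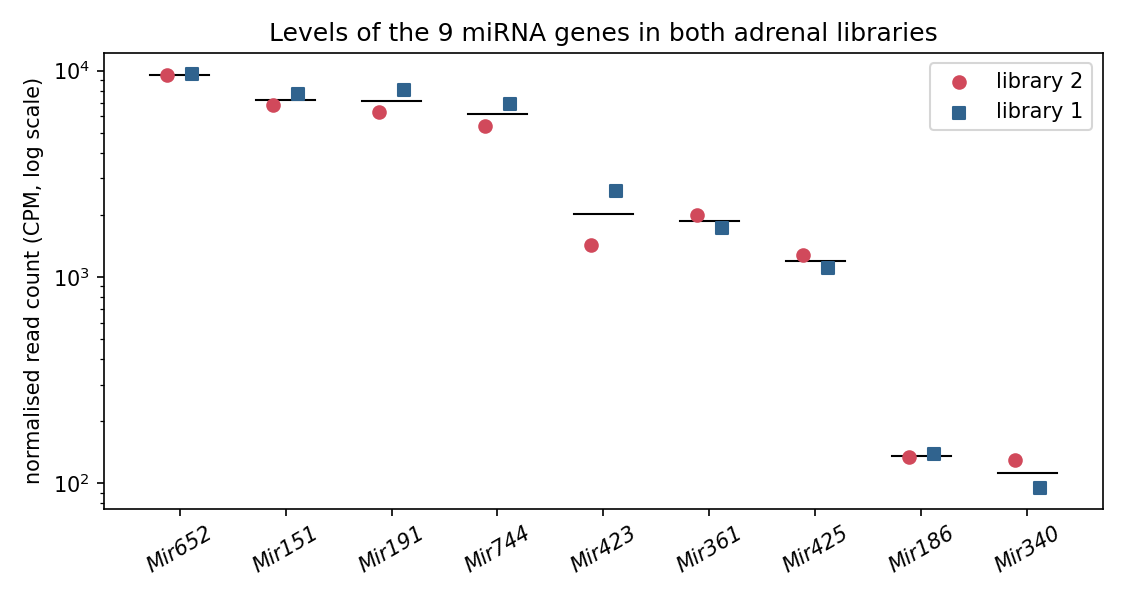
Normalised read count (CPM, log scale) of each gene in library 2 (circles) and library 1 (squares), with the mean of both as a line; genes run from the highest mean on the left to the lowest on the right. Mir652 is at 9471 and 9654 CPM and Mir340 at 130 and 94.9 CPM, in libraries 2 and 1.

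Mir652 was the most abundant, with 9471 CPM in library 2 and 9654 CPM in library 1 (9563 ± 129 CPM; SD, n = 2), and was above the other 8 genes in both libraries. It ranked 25th of all miRNA genes in library 2 and 21st in library 1. The 3 genes that followed overlapped. Mir151, whose 5p arm has been reported to promote migration of human liver cancer cells, had 6795 CPM in library 2 and 7670 CPM in library 1. Mir191 had 6274 CPM in library 2 and 8009 CPM in library 1, so it was below Mir151 in library 2 and above it in library 1. Mir744, reported in human cells to repress the growth factor gene TGFB1, had 5370 CPM in library 2 and 6906 CPM in library 1. Mir744 was thus below Mir151 and Mir191 within each library, while its value in library 1 lay above those of both in library 2, and Mir151 and Mir191 exchanged places.

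Mir423 had 1420 CPM in library 2 and 2622 CPM in library 1 (2021 ± 850 CPM; SD, n = 2). Mir361, reported in human cells to repress the vascular growth factor gene VEGFA, had 1988 CPM in library 2 and 1734 CPM in library 1, within the range of Mir423. Mir425 had 1283 CPM in library 2 and 1104 CPM in library 1, below both values of either gene. Mir186 was low, with 133 CPM in library 2 and 139 CPM in library 1. Mir340, reported to repress the pigment cell regulator MITF in human melanoma cells, was the lowest, with 130 CPM in library 2 and 94.9 CPM in library 1. Mir186 and Mir340 did not overlap, but in library 2 they were 521 and 508 reads, a difference within counting error.

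The detected gene nearest to each of the 9 in the plane of both log2 CPM values was sought among the 328 others. Likeness here means distance over 2 libraries and says nothing of shared control. Mir30d was nearest to Mir652 (distance 0.073), Mir324 to Mir361 (0.097), Mir337 to Mir425 (0.11), Mir449a to Mir186 (0.12), Mir224 to Mir340 (0.16) and Mir140 to Mir423 (0.21). Mir98 was nearest to all of Mir151 (0.20), Mir191 (0.23) and Mir744 (0.23), with 6312 CPM in library 2 and 6819 CPM in library 1.

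Stability between the libraries was taken from the ratio of library 2 over library 1, scaled with edgeR's TMM effective library sizes. A two-sided exact binomial test of each gene on its reads, fitted over 411 genes and adjusted by Benjamini and Hochberg, compares these 2 libraries by counting error and no conditions. Of the 9 genes, 8 passed an adjusted p of 0.05, against 58.4% of all genes tested. It was 7 with DESeq2 size factors, with TMM computed without the 9 genes and with a minimum of 100 reads per library, against 57.4%, 58.9% and 83% of the genes tested. In unstranded counts, where Mir191 has no reads, 7 passed, against 57%. Of the 9, 4 passed as higher in library 2, against 29.4% of all genes tested, and 4 as higher in library 1, against 29%. Among the 149 other detected genes within the range of mean CPM of the 9, 65 passed as higher in library 2 and 64 as higher in library 1. At the depth of the abundant genes even small differences pass this test, so the size of the ratio matters more. When the difference also had to reach 1.5-fold, only Mir423 was called among the 9, against 31.4% of all genes tested. Mir340 was called as well, making 2 of the 9, with DESeq2 size factors, with no filter on low counts and with a minimum of 100 reads per library, where 32.1%, 17% and 36.8% of the genes tested were called.

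Mir652 was level, at 37055 reads in library 2 against 21664 in library 1, and had a log2 ratio of 0.058 (95% counting interval 0.034 to 0.083). The test called it (exact binomial, adjusted p = 5.6e-06) at a 1.04-fold difference, and no longer did with TMM computed without the 9 genes (log2 ratio 0.021; exact binomial, adjusted p = 0.143). Mir186 was level too, with 521 reads in library 2 and 311 in library 1. Its log2 ratio was 0.028, with an interval from -0.17 to 0.23, and it was the 1 gene of the 9 that did not pass (exact binomial, adjusted p = 0.87). Mir151 had 26583 reads in library 2 against 17212 in library 1, a log2 ratio of -0.089 (-0.12 to -0.061; exact binomial, adjusted p = 1.11e-09). It was not called with DESeq2 size factors (log2 ratio -0.025; exact binomial, adjusted p = 0.121) or with a minimum of 100 reads per library (-0.0072; adjusted p = 0.634). The direction of these 3 genes was not stable. With library size alone the log2 ratio was -0.028 for Mir652 and -0.058 for Mir186, with TMM computed without the 9 genes it was -0.010 for Mir186, and with TMM over all genes without a filter on low counts it was 0.077 for Mir151.

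Mir340, Mir425 and Mir361 were higher in library 2 under all 10 settings run. Mir340 had 508 reads in library 2 and 213 in library 1, a 1.45-fold difference (log2 ratio 0.54, 0.31 to 0.77; exact binomial, adjusted p = 8.47e-06). Mir425 had 5018 reads in library 2 and 2478 in library 1, a 1.23-fold difference (log2 ratio 0.30; exact binomial, adjusted p = 2.85e-17). Mir361 had 7777 reads in library 2 and 3892 in library 1, a 1.22-fold difference (log2 ratio 0.28; exact binomial, adjusted p = 3.25e-23).

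Mir423, Mir744 and Mir191 were higher in library 1 under all settings that gave them a ratio, 10 for Mir423 and Mir744 and 9 for Mir191. Mir423 stood furthest out, with 5556 reads in library 2 and 5883 in library 1 although library 2 was the deeper, a 1.74-fold difference (log2 ratio -0.80, -0.85 to -0.75; exact binomial, adjusted p = 8.04e-190). Of the 337 detected genes, 75.4% had a smaller absolute log2 ratio than Mir423. Mir744 had 21008 reads in library 2 and 15498 in library 1, 1.21-fold higher in library 1 (log2 ratio -0.28; exact binomial, adjusted p = 7.86e-72). Mir191 had 24544 reads in library 2 and 17973 in library 1, 1.20-fold higher in library 1 (log2 ratio -0.27; exact binomial, adjusted p = 3.35e-77). The 3 genes on chromosome 11 included both the gene furthest toward library 2, Mir340, and the gene furthest toward library 1, Mir423.

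**Figure D3:**
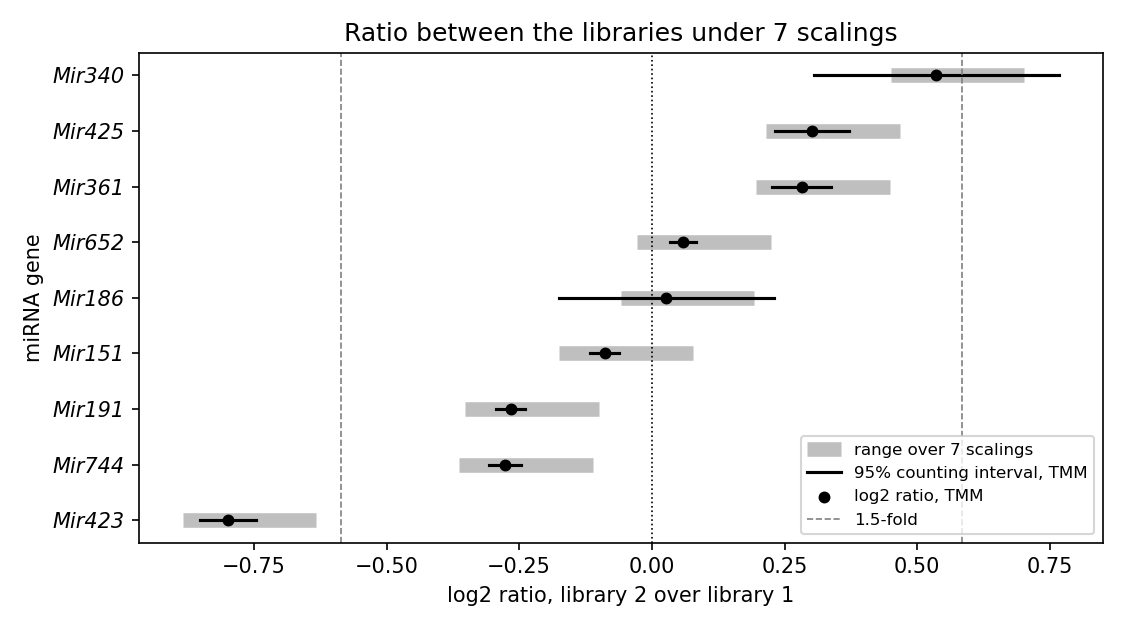
Log2 ratio of library 2 over library 1 for each gene (points), with 95% counting intervals (black) and the range over 7 scalings (grey bars); dashed lines mark 1.5-fold. The grey bars of Mir151, Mir186 and Mir652 cross 0, and the bar of Mir423 stays beyond 1.5-fold, from -0.88 to -0.63.

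These p-values hold no spread between animals. With an intercept-only design, edgeR put the biological coefficient of variation at 0.387 over the 411 genes tested. With that spread added to counting error, edgeR's exact test called 5 of 411 genes, which is 1.22%, and none of the 9 (adjusted p = 1 for each). At an unadjusted p under 0.05 it had 12 genes, also none of the 9, whose smallest exact p was 0.324 for Mir423. That spread was estimated from the same 2 libraries, so a typical gene cannot pass by construction, and the count of 0 says nothing about the stability of the 9.

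The median absolute log2 ratio of the 9 genes was 0.28, against 0.47 over all 337 detected genes and 0.44 over the 149 other detected genes within the same range of CPM. The median log2 ratio was 0.028 for the 9 and -0.089 over all detected genes. Within 1.5-fold were 8 of the 9, and 66.4% of the 149 genes. The 149 share the range but not the level of the 9, with a median of 587 CPM against 2021 CPM. Over 7 scalings the median absolute log2 ratio ran from 0.20 to 0.28 for the 9 and from 0.42 to 0.48 for the 149. These are descriptions of 9 genes in 2 libraries, and the difference from the other genes was not tested. The other 142 detected genes in a protein-coding host had a median absolute log2 ratio of 0.49, and the 186 outside such hosts had 0.46.

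**Figure D4:**
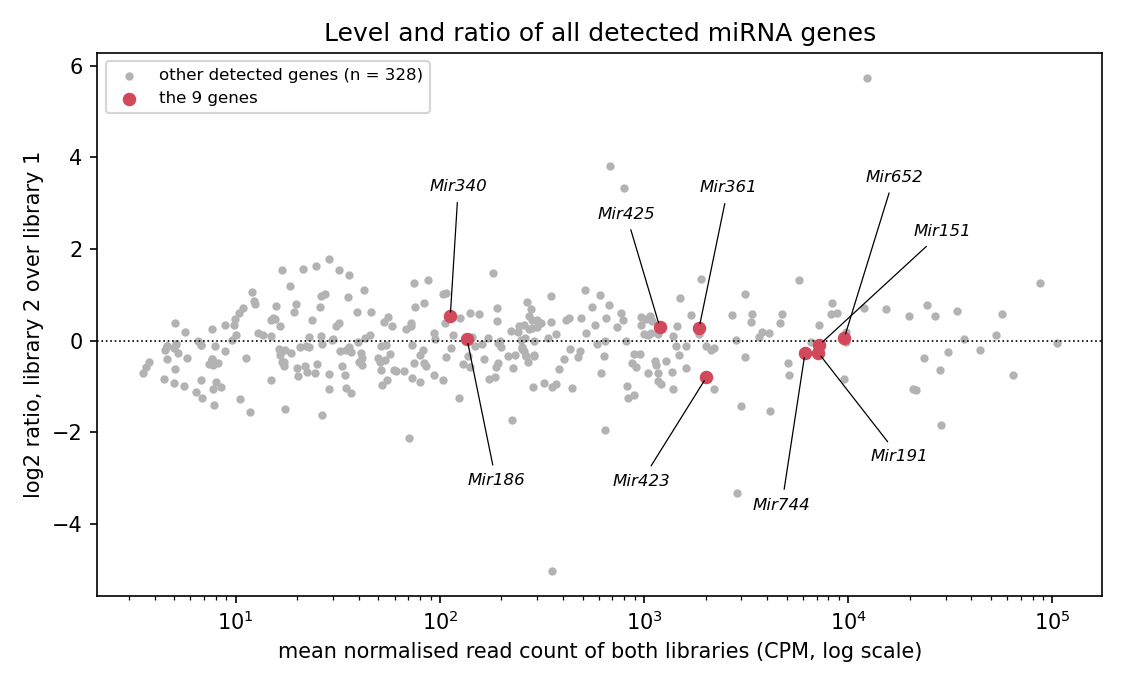
Mean CPM of both libraries (log scale, x axis) against the log2 ratio of library 2 over library 1 (y axis) for the 9 genes (red, named) and the 328 other detected genes (grey). The 9 genes lie between -0.80 and 0.54, while single grey genes reach 5.74.

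Among 28 other miRNA genes of hosts that most cells transcribe, 27 were detected, 13 of them called higher in library 2 and 9 in library 1, where 112 and 117 of all 337 detected genes were called so. Their median absolute log2 ratio was 0.46. Drawn from textbook knowledge of hosts, the list includes the genes in Pank and Ctdsp introns given below. The most abundant were Mirlet7g, with 99953 CPM in library 2 and 110316 CPM in library 1, Mir26b, with 19728 and 27071 CPM, and Mir30e, with 10395 and 7234 CPM. The median absolute log2 ratio was 0.88 for 2 detected of 3 genes in Pank introns, 0.40 for 3 genes in Ctdsp introns and 0.43 for 5 genes of the Clcn5 intron. Some of these genes had few reads. Mir103-2 had 124 in library 2 and 45 in library 1, and Mir26a-1 had 25 and 20. Mir26a-2 had 77 and 1540 reads, a log2 ratio of -5.03. Reads that mapped to several places were set aside, and whether this changed the ratios of these genes was not tested. None of the differences between these lists and the 9 genes was tested.

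Read as a yardstick of depth, the 9 genes gave library 2 between 0.944 (Mir423) and 2.38 (Mir340) times the reads of library 1. The median was 1.68, that of Mir186, and the summed reads gave 1.51 (95% counting interval 1.497 to 1.524). The ratio of miRNA reads was 1.74, that of TMM effective library sizes 1.64, and that of DESeq2 size factors 1.57. The median of the 9 genes thus lay between the library size and this TMM ratio, and their sum lay below all 3. This TMM ratio was computed with the 9 genes included. TMM computed without the 9 genes gave 1.686, just above their median of 1.675. TMM gave 1.55 with a minimum of 100 reads per library and 1.46, below the sum, with no filter on low counts. The sum gave 1.55 without Mir191, 1.54 without Mir744 and 1.44 without Mir652. Without Mir451a and Mir144 of red blood cells and Mir126a of endothelium, all 3 higher in library 2, the TMM ratio was 1.62, and the log2 ratios shifted by 0.017.

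Mir191 and Mir425, in the same noncoding RNA gene, were at unequal levels and in unequal proportion. Mir191 had 4.89 times the level of Mir425 in library 2 (95% counting interval 4.74 to 5.04) and 7.25 times in library 1 (6.95 to 7.56). The ratio was lower in library 2 by 0.57 on the log2 scale, with a difference of -0.57 and a counting interval from -0.64 to -0.49. The ratio is taken within a library, so no scaling bears on it. Mir425 was higher in library 2 and Mir191 in library 1, both by less than 1.5-fold.

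The strand of the reads decided whether Mir191 was counted at all. Gm24083 (ENSMUSG00000092915.1; chromosome 9, 108568295 to 108568414, minus strand), annotated as a miRNA gene, spans Mir191 on the opposite strand. Counted without strand, Mir191 had 0 reads in both libraries, in place of 24544 in library 2 and 17973 in library 1. These reads equal 2.94% of the reads set aside as ambiguous in library 2 and 5.90% of those in library 1. The other 8 genes had the same counts with and without strand. Mir151 has an antisense long noncoding gene opposite it, 1700085D07Rik, which is not in the tables of miRNA genes and set no reads aside. None of the 9 genes had a read on the opposite strand in either library, where a count of 0 allows up to 3 reads, or 0.767 CPM in library 2 and 1.34 CPM in library 1.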

How the data were processed

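The authors deposited 1 table of raw read counts per miRNA gene for each library, mapped to mm10 per the labels and with the GENCODE M21 annotation per the deposited text. The aligner, trimming and counter, with their versions, were not given in the sources used here. Each table holds 3 columns of counts, read from layout and totals as unstranded, gene strand and opposite strand. Library 2 held 11132685 reads and library 1 held 7938596, of which 35.1% and 28.3% were counted on the gene strand, 27.8% and 33.8% were unmapped, 27.5% and 28.4% mapped to several places and 9.53% and 9.57% lay outside miRNA genes. The rows for such reads were set aside.

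The genes and lists were chosen with earlier results of these data known. CPM used gene-strand miRNA reads. Genes with 10 or more reads summed entered an exact binomial test (two-sided) with TMM effective library sizes, and 0.5 read was added before log2 ratios. With 1 group, no quasi-likelihood test was possible. The test scripts were checked on simulated data. Named besides the 9 genes were their nearest detected genes, the 3 most abundant genes of the host list, the cell type markers and genes overlapping the 9. Dalrd3 and the miRNAs sharing a seed were named from the annotation. Alternatives covered scaling, filters, the unstranded column, library size, added reads, fold limit and dispersion. Scaling and dispersion came from edgeR 4.0.16 and DESeq2 1.42.0 in R 4.3.3. Tests ran in Python 3.11.15 with scipy 1.17.1 and statsmodels 0.14.6, tables in pandas 2.3.3 with numpy 2.4.6, and plots in matplotlib 3.10.9.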

Additional observations from a re-analysis of the deposited data

Results flagged for a closer look

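Gm24083, the annotated miRNA gene opposite Mir191, had 24544 reads in library 2 and 17973 in library 1 on the strand opposite to it, above the 3 reads that a count of 0 allows. The counts equal those of Mir191, and Gm24083 had 0 reads on its own strand in both libraries. The single group had 2 samples, too few to look for a sample that stands apart.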

How the results depend on the processing

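No paired analysis was possible because both libraries form a single group. The log2 ratio of Mir652 changed sign with library size alone (-0.028) and that of Mir151 with no filter on low counts (0.077). Called among the 9 genes with a fold of 1.5 or more were 2 with DESeq2 size factors, 2 with no filter on low counts, 2 with a minimum of 100 reads per library, 0 with edgeR's exact test and 0 with a fold limit of 2. At an adjusted p alone, edgeR's exact test called 0 of the 9, and 5 of 411 genes in place of 240. The spread it used came from the same 2 libraries, so a typical gene cannot pass. No filter on low counts shifted all log2 ratios by a median of 0.17, and the share of called genes higher in library 2 was then 61.7% in place of 50.4%. The median absolute log2 ratio of the 9 was 0.22 with library size alone, 0.21 with DESeq2 size factors, 0.22 with no filter and 0.20 where both libraries had to hold 100 reads. The share of the 9 was 1.61% of all mapped reads and 3.93% without Mir451a, Mir144 and Mir126a. The ratio of summed reads was 1.44 without Mir652, 1.54 without Mir744, 1.55 without Mir423, 1.55 without Mir191, 1.49 without Mir425, 1.49 without Mir361 and 1.55 in unstranded counts. In unstranded counts, where Mir191 has no reads, Mir191 over Mir425 was 0. Leaving out replicate 1 or 2 gave shares of 3.29% and 3.79% and Mir191 over Mir425 of 4.89 and 7.25. Causes other than the construction of a setting were not tested. Of 2 libraries the one left has no spread, and Mir340 and Mir186, with 213 and 311 reads in library 1, have the widest counting intervals.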
